A study of Rattus norvegicus with 144 samples.

Results

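The isoform make-up of 233 rat genes was examined in 3 brain regions. These genes carry at least 3 annotated transcripts each, every one of them at least 700 and below 5000 bases long, and their transcripts summed to at least 10 FPKM on average in the saline-treated F344 rats of every region. They were selected on these measured F344 saline sums, on the number of annotated transcripts and on the lengths listed in the F344 libraries. Each library lists a length of its own, and every record of every F344 library, saline or nicotine, had to lie within the limits. With the median F344 length in place of every record 307 genes would have met the rule, and 283 if at least 3 transcripts of the gene had to fit rather than all. FPKM is the number of sequenced fragments per kilobase of transcript, scaled to the mapped fragments of the library. The 233 genes were taken from 29275 reference genes in the prefrontal cortex, 29289 in the hippocampus and 29265 in the striatum, of which 2155, 2154 and 2153 had at least 3 annotated transcripts. They hold 843, 844 and 843 transcripts in the 3 regions. Because the summed FPKM of the F344 saline rats chose the genes, the levels in those rats are given below as a description only. The shares of the isoforms were not used in the choice, but the listed lengths of the F344 libraries were.

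The study sequenced RNA from adult male rats of the HIV-1Tg strain, which carries a non-infectious HIV-1 provirus as a transgene, and of its background strain F344. Rats of both strains received either nicotine (0.25 mg/ml, 1 ml/kg of body weight) or saline under the skin 2 times a day for 17 days, and had been used in a behavioral experiment before. The groups are called F344_Sal, F344_Nic, HIV_Sal and HIV_Nic, with 12 rats each. Punches were taken on both sides from prefrontal cortex (PFC), from the dorsal part of the hippocampus (HIP) and from the dorsal part of the striatum (STR). They gave 144 libraries, 48 for each region, and a punch mixes neurons, glia and vessel cells.

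A gene can give rise to several transcripts through alternative promoters, alternative splicing and alternative polyadenylation. Brain tissue is known for its rich use of such isoforms, which can differ in the encoded protein or in the untranslated regions that govern the stability, location and translation of the mRNA. An isoform share, the FPKM of a transcript as a percentage of the summed FPKM of all annotated transcripts of its gene in the same library, follows the make-up of a gene separately from its level. In bulk tissue a shift in share can come from cells changing their isoforms or from another mix of cells, and these cannot be told apart here. The deposited tables give Ensembl identifiers and do not pair them with gene names, so genes are named by identifier, their functions are not given, and the regions were not checked against marker genes.

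The rule drew a line through a continuous range. The 2 genes just below the limit had a lowest regional mean of 9.96 and 9.989 FPKM in F344_Sal, and the 2 just above it had 10.001 and 10.002 FPKM. Of the members, 147 had 3 isoforms, 53 had 4 and the remainder had more, up to 9. The median gene summed to 26.3 FPKM, 26.0 and 25 in PFC, HIP and STR over all 48 libraries of a region, and the highest to 482, 599 and 447 FPKM.

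Many annotated isoforms were not seen. Of the 844 isoforms of the 233 genes, 662 were above 0 in at least 1 library and 182 were listed at 0 in every library of all 3 regions. In the PFC 59.6% of all values were listed at 0, in the HIP 60.0% and in the STR 58.9%. Fewer than 1% of the values above 0 lay under 10% of the gene's highest isoform (0.47%, 0.488% and 0.474% in the 3 regions), so small shares are nearly missing. Whether an isoform listed at 0 was weak or absent cannot be told. Only 1 isoform was ever above 0 in 16 genes, 29 and 30 in PFC, HIP and STR, whereas at least 3 isoforms were seen in 125, 119 and 128 genes. Assembled transcripts that share a splice junction with the gene without matching an annotated transcript lie outside the shares. They held a median of 19.9%, 19.1% and 21.2% of the combined FPKM of the gene, and over 50% in 22, 34 and 25 genes.

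In most of the genes 1 isoform dominated. The leading isoform, the one with the highest mean share in a region, took a median of 80.0% of the gene sum, 80.5% and 79.0% in PFC, HIP and STR. It exceeded 95% in 62, 69 and 61 genes and stayed below 50% in 20, 27 and 24 genes, with the lowest leading share at 34.8%, 35.5% and 34.3%. By median listed length, the leading isoform was the longest of its gene in 116, 123 and 123 of the 233 genes, and the shortest in 30, 40 and 33.

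The sequence model behind an identifier was not fixed either. Each library lists its own length for a transcript, and 625, 605 and 625 of the member isoforms had lengths over 100 bases apart between libraries of the same region. About 22.0% of the records, 22.7% and 22.4% in PFC, HIP and STR were over 100 bases longer than the shortest length listed for the isoform. The longer records were above 0 in 43.0%, 44.9% and 45.0% of cases and the others in 39.6%, 38.6% and 40.0%. What the differing models do to the shares was not tested.

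The dominance held on average and less so rat by rat. The isoform that led a region's mean was also the highest one in 84.4% of all gene and rat pairs, 85.5% and 84.2% in PFC, HIP and STR. It led in every rat of the region in 57, 78 and 67 genes. Across the 12 sets of libraries (4 groups in 3 regions), 218 genes had enough values to name a leading isoform in each. In 158 of them the same isoform led throughout. Within single regions the 4 groups shared the leading isoform in 185 of 223, 195 of 221 and 195 of 224 genes.

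The spread between rats of one group was large. The SD of the leading share within groups had a median of 19.1 percentage points, 17.3 and 18.6 in PFC, HIP and STR, and exceeded 20 points in 111, 94 and 108 genes. For the leading isoform the SD of the FPKM between rats had a median of 39.9%, 40.2% and 42.5% of the mean. The 95% interval that Cufflinks gives for each FPKM reached to either side by a median of 8.57%, 9.63% and 9.38% of the value. The interval covers the estimate in 1 library and not the difference between animals.

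**Figure D1:**
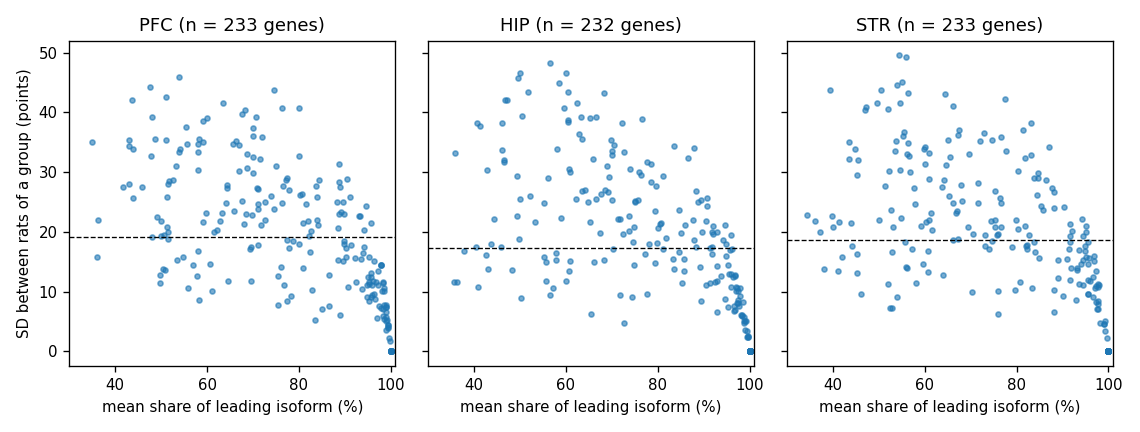
Mean share of the leading isoform (x axis, percent) against the SD of that share between rats within groups (y axis, percentage points), 1 point per gene and 1 panel per region, with the median SD as a dashed line. The median lies at 19.1 points, 17.3 and 18.6 in PFC, HIP and STR, and genes with a leading share near 100% have the smallest SD.

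Steady and unsteady genes stood at either end of this range. The leading share did not vary at all in 16 genes, 30 and 30 in PFC, HIP and STR, and 12 of these were the same genes in all 3 regions. Among genes with any variation, the 5 steadiest (ENSRNOG00000017513, ENSRNOG00000027839, ENSRNOG00000010512, ENSRNOG00000011414 and ENSRNOG00000030625) had SDs from 1.06 to 2.6 points averaged over the regions. Where other isoforms are at 0 the share is held at 100% whatever the level. Thus ENSRNOG00000030625 summed to 150.0 FPKM, 116 and 447 in PFC, HIP and STR while its leading isoform stayed near 100%. At the other end, ENSRNOG00000001769 had an SD of 46.3 points, followed by ENSRNOG00000022664, ENSRNOG00000007367, ENSRNOG00000015079 and ENSRNOG00000030654, the last of these at 42.2. ENSRNOG00000015079 shows how such genes varied. In the PFC its isoform ENSRNOT00000055907 was at 100% in 21 of 46 libraries and at 0% in 16, while ENSRNOT00000067228 was at 100% in 16 and at 0% in 23. Rats of all 4 groups are pooled in these counts.

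Abundance did not fix the make-up either. The 5 genes with the highest mean sums were ENSRNOG00000009862 (377 FPKM), ENSRNOG00000003229 (351), ENSRNOG00000016460 (338), ENSRNOG00000033835 (300) and ENSRNOG00000029912 (254). In ENSRNOG00000003229 the leading isoform took between 98.9% and 100% of the sum in the 3 regions. In ENSRNOG00000016460 it took 57.0%, 60.6% and 60.8%.

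The study asked first how the transgenic strain differs from F344. Each strain has a table of its own in each region, so strain and table cannot be told apart. For the shares, the test was limma on the arcsine square root of the share, fitted in each region on all isoforms of all genes with at least 2 annotated transcripts, and a call meant an adjusted p under 0.05 over all isoforms tested. In the PFC 533 isoforms of 208 members were among 5060 tested, in the HIP 494 of 193 members among 5159, and in the STR 513 of 195 members among 5076. Isoforms with a mean share under 1% were not tested.

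No isoform share of a member differed between HIV_Sal and F344_Sal in any region by this test, and none differed between the strains with both drugs averaged. The background was as low. The saline contrast called 0% of all isoforms in each region, and the averaged contrast called 0.0791% in the PFC and 0% in the HIP and STR. At an unadjusted p under 0.05, 23 member isoforms passed in the PFC saline contrast (4.32% of those tested, against 3.62% of all isoforms) and 40 in the averaged contrast (7.5%, against 5.34%). In the HIP 36 and 27 passed at that level (7.29% and 5.47%, against 5.45% and 3.86% of all isoforms) and in the STR 28 and 39 (5.46% and 7.6%, against 5.2% and 6.05%). limma's diffSplice, which sets each isoform against the others of its gene, called 1 member isoform in the averaged contrast of the STR (0.143% of all isoforms) and 0 in the other 5 strain contrasts. Log2 ratios of an isoform to the others of its gene were also tested, with a pseudocount of 1. The averaged contrast then called 1, 1 and 3 member isoforms in PFC, HIP and STR (0.158%, 0.0194% and 0.0985% of all isoforms). The precision sets a limit on this result. The median standard error of a saline contrast was 7.3 percentage points, 7.08 and 7.23 in PFC, HIP and STR. In these contrasts 107, 122 and 102 member isoforms differed by at least 10 points, and none was called. The absence of calls therefore does not exclude sizeable shifts. When the shares of 200 isoforms were changed by 0.3 on the arcsine scale in simulated data, the averaged contrast found 52% of them, 54.5% and 50.5% in PFC, HIP and STR.

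The members with the smallest adjusted p in the strain contrasts are given for their values, although none passed. In the PFC with drugs averaged they were ENSRNOG00000020330, ENSRNOG00000020235 and ENSRNOG00000020616, with an isoform differing by 18.4, -12.5 and 19.9 points (adjusted p = 0.625 for each, limma). ENSRNOT00000063998 of ENSRNOG00000020330 averaged 32.4%, 16.8%, 41.5% and 44.6% for F344_Sal, F344_Nic, HIV_Sal and HIV_Nic, and the groups overlapped. In saline the PFC list held ENSRNOG00000008810, ENSRNOG00000007649 and ENSRNOG00000004099, at 34.7, 26.2 and 13.6 points (adjusted p = 1 for each, limma). ENSRNOT00000061303 of ENSRNOG00000008810 ran from 0% to 63.7% in F344_Sal (median 0%) and from 0% to 100% in HIV_Sal (median 35.9%). The nicotine groups stood in the opposite order, with means of 38.1% in F344_Nic and 8.33% in HIV_Nic.

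In the HIP ENSRNOT00000044810 of ENSRNOG00000005908 headed both strain contrasts. Its share ran from 39.1% to 100% in F344_Sal (median 100%) and from 21.1% to 100% in HIV_Sal (median 48.5%). The saline difference was -32.9 ± 8.74 points and the averaged one -21.4 ± 6.18 (adjusted p of 0.565 and 0.727, limma). It was followed by ENSRNOG00000027300 (-31.2 points) and ENSRNOG00000014093 (8.67) with drugs averaged, and by ENSRNOG00000005480 (-28.2) and ENSRNOG00000014338 (23.0) in saline. In the STR ENSRNOT00000024179 of ENSRNOG00000017758 stood high in both lists, with medians of 34.8%, 33.3%, 19.3% and 26.3% in the 4 groups in the order above. It differed by -22.9 ± 7.15 points in saline and -18.1 ± 5.05 averaged (adjusted p of 0.742 and 0.51, limma). ENSRNOG00000009681 (11.3 points) and ENSRNOG00000010125 (28.9) followed in saline and ENSRNOG00000001633 (-18.9) with drugs averaged, where ENSRNOG00000004616, described next, came first.

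The sum of 1 member stood lower in HIV-1Tg in each region. The F344_Sal sums chose the members, so contrasts of sums that hold F344_Sal are a description. No p-value is given for them, and a count past an adjusted p of 0.05 is printed only beside the percentage of all gene sums, with nothing read from it. The sum of ENSRNOG00000004616 in the PFC ranged from 19.5 to 30 FPKM in F344_Sal (median 22.4) and from 1.78 to 10.9 in HIV_Sal (median 8.83). F344_Nic ranged from 2.66 to 22.8 (median 15.9) and HIV_Nic from 1.43 to 13.7 (median 10.3). The saline groups did not overlap, and the nicotine groups did. On the scale of log2(FPKM + 0.1) the saline difference was -1.74 ± 0.31 (SE), and 0.0268% of the 11205 gene sums tested in the PFC were called in that contrast.

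In the HIP its sum was 22.4 ± 3.17 FPKM in F344_Sal and 9.39 ± 2.76 in HIV_Sal (SD, n = 12), a log2 difference of -1.35 ± 0.28 (0.0526% of all gene sums called). In the STR it was 23.9 ± 3.4 and 10.8 ± 3.6 FPKM, a log2 difference of -1.30 ± 0.28 (0.0259% called). The saline groups did not overlap in any of the 3 regions.

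The sums of the nicotine rats were not used in the choice of genes, which took only listed lengths from the F344_Nic libraries. The strains were compared on them with limma after the data were seen. The rule set a level in F344 only, and on its HIV_Sal sums in the HIP ENSRNOG00000004616 would not have met 10 FPKM. Its strain difference is thus tied to the choice, and the p-values below are a description. In the HIP the sum of ENSRNOG00000004616 ran from 16.6 to 23.4 FPKM in F344_Nic (median 20.9) and from 1.2 to 14.7 in HIV_Nic (median 9.9), without overlap. The log2 difference was -1.45 ± 0.28 (SE, adjusted p = 0.0201, limma), and 0.0526% of all gene sums were called. The PFC and STR differences of -0.92 ± 0.31 and -0.85 ± 0.28 did not pass (adjusted p of 0.0711 and 0.408, limma). No other member passed in the HIP, 0 passed in the STR, against 0.0519% of all gene sums, and 3 of 224 passed in the PFC, against 5.9%.

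The leading isoform of this gene, ENSRNOT00000059926, took most of the sum in every group. Its mean share in F344_Sal, F344_Nic, HIV_Sal and HIV_Nic was 94.4%, 90.9%, 92.0% and 83.6% in the PFC, 95.2%, 90.3%, 92.4% and 87.5% in the HIP, and 98.0%, 100%, 90.5% and 86.2% in the STR. The strain difference over both drugs was -4.76, -2.78 and -10.7 points in PFC, HIP and STR, with adjusted p (limma) of 0.852, 0.934 and 0.495. None passed the test. The STR difference had an unadjusted p of 0.00127 and passed under alternatives, with adjusted p of 0.0156 by diffSplice and 0.00267 on log2 ratios with a pseudocount of 1 (limma). Both alternatives add a constant to the FPKM, so they also move with the gene sum and do not test the share alone. On log2 ratios with a pseudocount of 0.1 no member isoform passed in this contrast (lowest adjusted p = 0.0749, limma). In the STR the share reached 100% in all 12 F344_Nic rats, and ranged from 54.2% to 100% in HIV_Nic with a median of 87.9%.

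**Figure D2:**
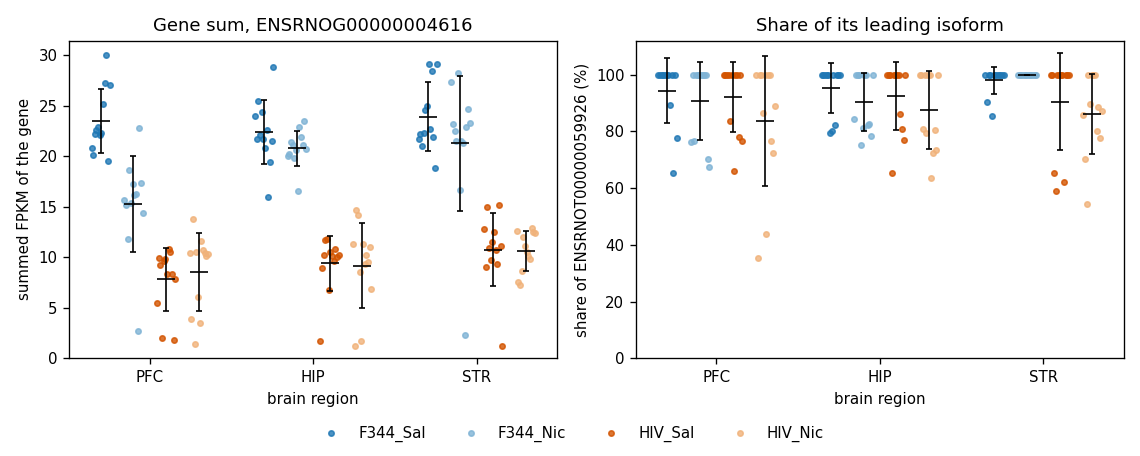
Summed FPKM of ENSRNOG00000004616 and share of its leading isoform ENSRNOT00000059926 (percent) for each rat, by region and group. In the PFC the saline sums lie at 19.5 to 30 FPKM in F344_Sal and 1.78 to 10.9 in HIV_Sal, while the mean shares of these groups are 94.4% and 92.0%.

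The 3 members called in the PFC among nicotine rats were all lower in HIV-1Tg. The rule set a level in F344 only, so nothing is read from this direction. The log2 difference was -0.33 ± 0.10 for ENSRNOG00000000302, -0.44 ± 0.12 for ENSRNOG00000001190 and -0.23 ± 0.07 for ENSRNOG00000007434 (SE, adjusted p of 0.0262, 0.00867 and 0.0449, limma). For ENSRNOG00000000302 the HIP and STR values were -0.04 and 0.06. With both drugs averaged, 2 members lay past the threshold in the PFC (3.94% of all gene sums), 1 in the HIP (0.0614%) and 1 in the STR (0.112%), a description that includes the F344_Sal rats.

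The next question was whether nicotine moved the shares. In F344 rats no member isoform passed in any region, against 0.158% of all isoforms in the PFC and 0% in the HIP and STR. In HIV-1Tg rats 1 of 533 member isoforms passed in the PFC (0.188%), against 0.336% of all isoforms, and none passed in the HIP or STR, where the background was 0%. At an unadjusted p under 0.05 the PFC contrast in HIV-1Tg held 63 member isoforms (11.8%), against 7.69% of all isoforms. The interaction, which tests the difference between the nicotine effects of the strains, called no member isoform and 0% of all isoforms in each region, with 32, 35 and 26 member isoforms at an unadjusted p under 0.05 in PFC, HIP and STR (6%, 7.09% and 5.07%, against 5.95%, 5.33% and 4.51% of all isoforms). In F344 rats 27, 25 and 14 member isoforms reached that level (5.07%, 5.06% and 2.73%, against 5.22%, 5.18% and 4.49%). In HIV-1Tg rats 30 did in the HIP (6.07%, against 4.67%) and 37 in the STR (7.21%, against 5.89%). diffSplice called 2, 6 and 2 member isoforms in the PFC for nicotine in F344, nicotine in HIV-1Tg and the interaction, against 0.327%, 0.797% and 0.368% of all isoforms, and 2 in the HIP for nicotine in F344, against 0.1%.

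These counts depended on how extreme rats were treated. When values beyond 1.5 interquartile ranges of their group were removed, member isoforms passed in every within-region contrast, from 1 for nicotine in F344 of the STR (0.259%, against 0.673% of all isoforms) to 35 for nicotine in HIV-1Tg of the PFC (9.09%, against 6.05%). The saline strain contrast then called 5, 21 and 5 member isoforms in PFC, HIP and STR (1.3%, 5.87% and 1.3%, against 0.461%, 4.25% and 1.58%). Removing the extremes of each group narrows the spread within groups and so lowers the p-values of isoforms in general. At an unadjusted p under 0.05 lay from 18% to 24.9% of all isoforms in these contrasts, against 3.62% to 7.69% with every rat kept, and 358 to 386 member isoforms were left to test. Calls on single isoforms under this setting are therefore not cited.

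The isoform called in the PFC was ENSRNOT00000064697 of ENSRNOG00000030630, a transcript with a median listed length of 3452 bases and 1 of 3 annotated for this gene. Its share ran from 0% to 100% in HIV_Sal with a median of 74.0%, and from 0% to 53.7% in HIV_Nic with a median of 13.8%. In F344_Sal it ran from 39.5% to 100% (median 46.9%) and in F344_Nic from 0% to 100% (median 48.6%). The groups overlapped, with 6 of 12 HIV_Sal rats at 100% and 6 of 12 HIV_Nic rats at 0%. The means were 69.5% ± 34.4 and 20.8% ± 22.5 (SD, n = 12), a difference of -48.7 ± 11.2 points (SE, adjusted p = 0.0437, limma).

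The other 2 transcripts of the gene carried the remainder. ENSRNOT00000047370, of 3640 bases by median, averaged 20.8% ± 25.9 in HIV_Sal and 50.6% ± 38.4 in HIV_Nic, and ENSRNOT00000051433, of 3181 bases, 9.67% ± 28.5 and 28.6% ± 37.8. Neither passed (adjusted p = 0.539 and 0.639, limma). The interaction of ENSRNOT00000064697 was -55.8 ± 15.9 points with an adjusted p of 0.393 (limma), so the nicotine effect was not shown to differ between the strains. In the other regions its share did not repeat the pattern. Its mean was 51.2% in HIV_Sal and 46.8% in HIV_Nic of the HIP, and 43.3% and 45.0% in the STR.

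The share of ENSRNOT00000064697 also varied with its listed length in the PFC. It averaged 34.3% in the 25 libraries where the record was over 100 bases longer than the shortest one and 70.2% in the 23 others. The longer record was listed in 5 of 12 HIV_Sal and 7 of 12 HIV_Nic libraries. Among the longer records the means of these groups were 38.3% and 16.7%, and among the shorter ones 91.8% and 26.6%. The 2 subsets were not tested.

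The call on ENSRNOT00000064697 was a narrow one. It was lost without any 1 of 29 of the 48 PFC libraries, namely F344_Nic 1, 6 and 12, F344_Sal 1 to 5, 7, 9, 10 and 12, HIV_Nic 1 to 6 and 11, and HIV_Sal 2 to 6 and 8 to 12, with adjusted p (limma) from 0.05 to 0.111. It was also lost when the share was left untransformed (adjusted p = 0.0565, limma), without the filter on gene sums (adjusted p = 0.0514), with the replicate number as a block (adjusted p = 0.0502) and when the 24 libraries of the HIV-1Tg rats were fitted alone (adjusted p = 0.2).

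The next members in the PFC contrast of HIV-1Tg rats missed the threshold. ENSRNOT00000018178 of ENSRNOG00000013128 was at a median of 0% in HIV_Sal (highest 0.0717%) and ran from 0% to 58.1% in HIV_Nic (median 18.7%). The difference was 23.8 ± 6.27 points (adjusted p = 0.0793, limma). It passed with adjusted p of 0.0011 by diffSplice, 0.00849 with sample weights, 0.0171 without the libraries that stood apart and 0.0232 with a term for replicates 1 to 6 against 7 to 12. It also passed without F344_Nic 4 or any 1 of HIV_Nic 7 to 12 (adjusted p from 0.0185 to 0.0408, limma). In the HIP and STR its mean share was below 1% in every group. ENSRNOT00000067776 of ENSRNOG00000012273 had a median of 41.9% in HIV_Sal (0% to 100%) and 0% in HIV_Nic (highest 44.9%), a difference of -42.5 ± 11.5 points (adjusted p = 0.0905, limma). It passed without HIV_Nic 8, HIV_Nic 9 or HIV_Sal 7 (adjusted p of 0.0391, 0.0448 and 0.0489).

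In F344 rats of the PFC the smallest adjusted p belonged to ENSRNOT00000065338 of ENSRNOG00000010350. Its share ran from 0% to 53% in F344_Sal (median 34.3%) and from 0% to 28.1% in F344_Nic (median 13.2%), a difference of -22.6 ± 5.55 points (adjusted p = 0.191, limma) that passed without F344_Sal 5 (adjusted p = 0.0219). ENSRNOT00000013683 of ENSRNOG00000010125 differed by 31.2 ± 8.83 points (adjusted p = 0.196). ENSRNOT00000041685 of ENSRNOG00000031325 averaged 8.33% in F344_Sal and 58.3% in F344_Nic, a difference of 50 ± 15.8 points (adjusted p = 0.536, limma) that diffSplice called (adjusted p = 0.0148).

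In the HIP ENSRNOT00000039513 of ENSRNOG00000011498 was at 0% in 8 of 9 F344_Sal rats (highest 39.3%) and at a median of 80.6% in 9 F344_Nic rats (lowest 0%, highest 100%). The difference was 71.7 ± 15.6 points with an adjusted p of 0.328 (limma). It passed with adjusted p of 0.00782 by diffSplice, 0.0436 on log2 ratios with a pseudocount of 1 and 0.0267 in the 24 F344 libraries alone, and also without F344_Nic 6 (0.029, limma). ENSRNOG00000003399 (17.2 points) and ENSRNOG00000005258 (-52.3) came next. In HIV-1Tg rats ENSRNOT00000041215 of ENSRNOG00000030127 had a median of 89.2% in HIV_Sal (43.1% to 100%) and 39.4% in HIV_Nic (26.4% to 100%), a difference of -33.0 ± 8.93 points (adjusted p = 0.622, limma). ENSRNOG00000014093 (13.6 points) and ENSRNOG00000011653 (25.7) followed.

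In the STR ENSRNOT00000040528 of ENSRNOG00000004309 ran from 0% to 66.2% in HIV_Sal (median 33.1%) and from 34.8% to 100% in HIV_Nic (median 55.7%). Its difference was 28.9 ± 6.58 points (adjusted p = 0.257, limma). ENSRNOT00000064039 of ENSRNOG00000033835 differed by -30.8 ± 8.46 points and ENSRNOT00000064744 of ENSRNOG00000004616 by 7.31 ± 2.46 (adjusted p of 0.434 and 0.544, limma). In F344 rats the list held ENSRNOT00000024445 of ENSRNOG00000017913 (-14.4 ± 4.75 points, adjusted p = 0.952, limma), ENSRNOG00000009681 (9.79) and ENSRNOG00000010389 (-13.2).

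Sums of members under nicotine could be tested in HIV-1Tg rats, where 0 members passed in the PFC (0.00892% of all gene sums called), 0 in the HIP (0%) and 0 in the STR (0.147%) by limma. At an unadjusted p under 0.05 there were 18, 15 and 11 members (8.04%, 6.76% and 4.89%, against 7.77%, 6.83% and 7.75% of all gene sums). Contrasts that hold F344_Sal are a description. In the PFC the sum of ENSRNOG00000017441 was 44.0 ± 23.1 FPKM in F344_Sal and 18.8 ± 20.6 in F344_Nic, a log2 difference of -3.82. The fold depends on the pseudocount, as single F344_Nic rats were at 0. Junction-sharing transcripts held 30% and 67.5% of the gene's FPKM in these groups, and their part in the difference was not tested. Here 5.53% of all gene sums were called. In the HIP the same contrast called 0.00877% of all sums and no member. The PFC interaction called 4.42% of all gene sums. Among members it included ENSRNOG00000036814, whose sum averaged 120 FPKM for F344_Sal, 143 for F344_Nic, 144 for HIV_Sal and 107 for HIV_Nic.

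**Figure D3:**
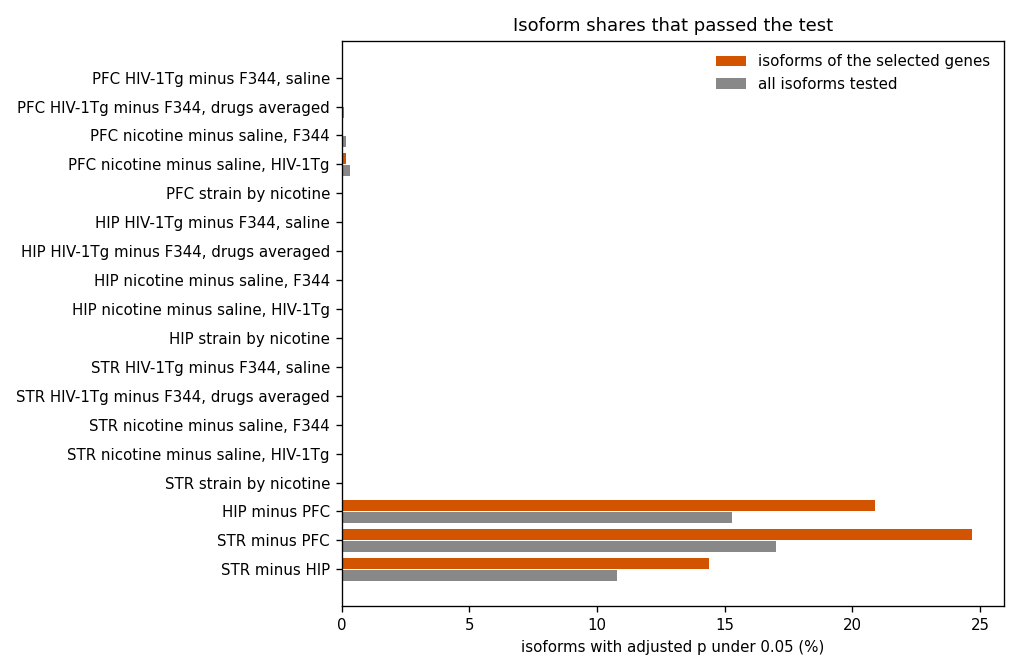
Percentage of isoform shares called at an adjusted p under 0.05 in each contrast, for isoforms of the 233 genes and for all isoforms tested. The within-region contrasts lie at or near 0, with 0.188% of member isoforms in the PFC nicotine contrast of HIV-1Tg rats, and the region contrasts lie between 14.4% and 24.7% for member isoforms.

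Between regions the shares differed widely. With the 4 groups averaged, 527 isoforms of 206 members were among 5021 tested over all 144 libraries. In the HIP against the PFC 110 member isoforms of 58 genes were called (20.9%, against 15.3% of all isoforms), 55 higher and 55 lower. In the STR against the PFC there were 130 of 72 genes (24.7%, against 17%), 66 higher and 64 lower. In the STR against the HIP there were 76 of 40 genes (14.4%, against 10.8%), 39 higher and 37 lower. The members were chosen for their level, and their percentages were not tested against those of all isoforms. In STR against HIP the order turned round on log2 ratios, with 19.4% of member isoforms against 20.3% of all at a pseudocount of 0.1 and 25.4% against 26.8% at 1. The 3 regions were punched from the same brains, so the libraries of different regions share animals. The labels do not say which libraries come from 1 rat, and the fit treats all as independent. Each region was assembled and quantified as its own set of tables, so region and table set cannot be told apart. The libraries also differed in depth: the coverage per FPKM had a median of 2.51, 2.05 and 2.2 in PFC, HIP and STR, and its part in the differences was not tested.

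The differences among called isoforms were sizeable. The median size among called member isoforms was 15.5, 15.7 and 16.8 points for the 3 contrasts, and 84, 103 and 58 of them reached at least 10 points (11.9%, 13.9% and 8.92% of all isoforms did). The sign was the same in all 4 groups for 96 of 110, 110 of 130 and 72 of 76. These isoforms were called on the average of the same 4 groups, so equal sign is partly built in and is a description. When isoforms were called on the F344_Sal rats alone, 12, 28 and 19 passed (2.28%, 5.31% and 3.61%, against 1.79%, 3.57% and 2.65% of all isoforms). All of these pointed the same way in the average of the other 3 groups, and 10, 25 and 16 were called there too. The same overlap was not counted over all isoforms, and nothing is read from it.

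Most region differences were shifts in proportion and not a change of leader. The leading isoform differed between the 2 regions in 13 of the 58 genes called in HIP against PFC, 14 of 72 in STR against PFC and 10 of 40 in STR against HIP. Among the remaining genes of the 206 tested, which were not called, it differed in 10, 5 and 9. A gene held called isoforms in each direction in 47, 51 and 30 cases, and the one higher in the region named first was the longer one in 26, 23 and 13 of these. In all, 92 of the 206 genes tested were called in at least 1 of the 3 contrasts and 9 in all of them. The same was not counted over all genes, so nothing is read from these counts.

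ENSRNOG00000018184, with 7 annotated isoforms, changed its leading isoform between HIP and the other regions. ENSRNOT00000024493 of this gene was listed at 0% in 36 of 44 PFC libraries (median 0%, highest 70.7%), and reached 100% in 22 of 38 HIP libraries (median 100%, lowest 0%). In the STR it was at 0% in 31 of 47 libraries, with a highest share of 63.9%. The HIP share was 69.3 ± 5.1 points above the PFC (adjusted p = 2.38e-22, limma) and the STR share 60.2 points below the HIP (-60.2 ± 5.02, adjusted p = 1.12e-19).

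In HIP against PFC the difference of ENSRNOT00000024493 was 57.2 points for F344_Sal, 86.3 for F344_Nic, 73.4 for HIV_Sal and 60.2 for HIV_Nic. Its counterpart ENSRNOT00000024575 averaged 83.8%, 19.1% and 65.3% in PFC, HIP and STR. Libraries in which an isoform of the gene had no record were left out, 10 of 48 in the HIP. The level of the gene was 27 ± 19.4 FPKM in the PFC and 26.9 ± 19.9 in the HIP (SD, n = 48), and 36.2 ± 14.4 in the STR. The median listed length of ENSRNOT00000024575 was 2816 bases, 952 and 2783 in PFC, HIP and STR. Among libraries with the shortest record its mean share was 80.8% in the PFC (n = 16), 6.32% in the HIP (n = 24) and 85.5% in the STR (n = 16). Among longer records it was 85.6%, 40.9% and 54.9%. The part of record length in the region difference was not tested. In the junction-sharing transcripts lay 52.1% of the gene's FPKM, 52.3% and 26.1% in PFC, HIP and STR.

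ENSRNOG00000033835, among the most abundant members, moved between 3 isoforms. ENSRNOT00000060325 had a median share of 79.3% in the PFC (0% to 100%, n = 48), 15.5% in the HIP (0% to 62.1%, n = 48) and 41.4% in the STR (0% to 100%, n = 47). The HIP lay 57.6 points below the PFC (-57.6 ± 4.31, adjusted p = 1.05e-17, limma), with differences from -60.8 to -54.2 points in the 4 groups. ENSRNOT00000042762 took 19.2%, 42.6% and 24.7% on average in the 3 regions, and ENSRNOT00000064039 took 6.25%, 40.4% and 33.9%. The sum was 353, 361 and 187 FPKM in PFC, HIP and STR.

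**Figure D4:**
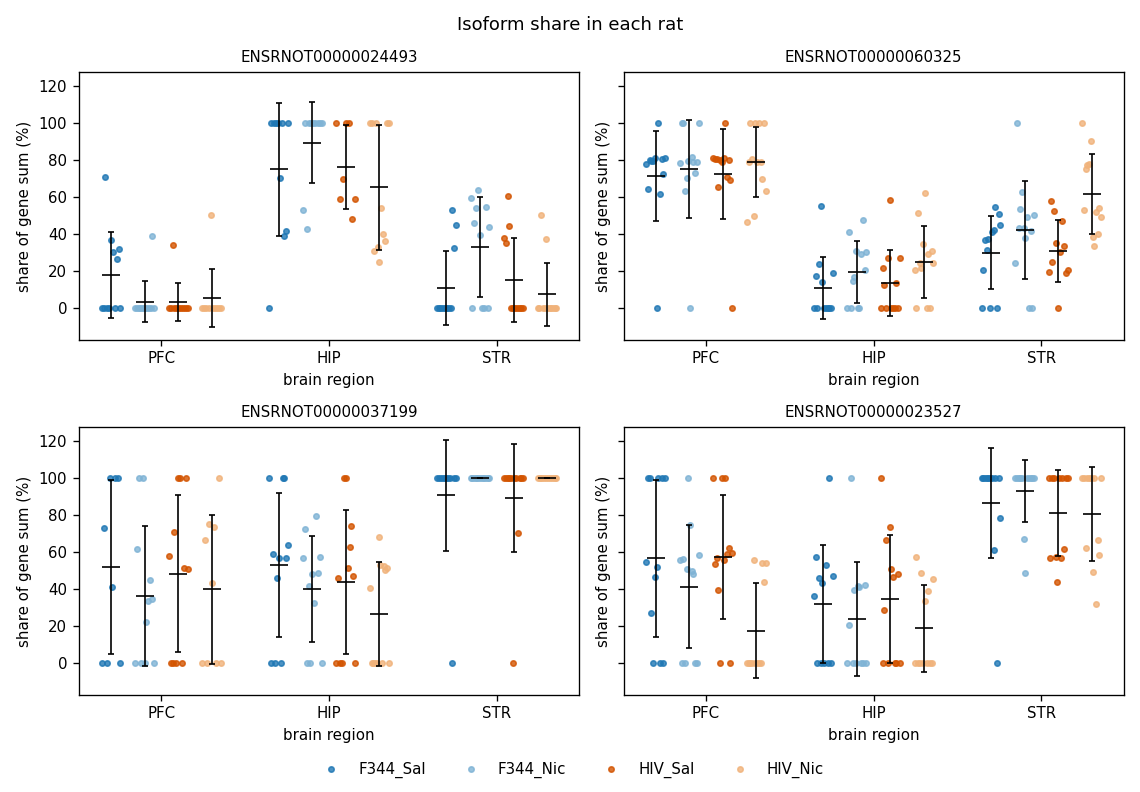
Isoform share (y axis, percent) in every rat for 4 member genes with region differences, by region and group, each point being 1 library, with the mean and the SD of each group as bars. ENSRNOT00000024493 averages 76.3% in the HIP against 7.23% in the PFC, and ENSRNOT00000060325 averages 74.6% in the PFC against 17.0% in the HIP, with single rats at 0% or 100% in most panels.

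ENSRNOG00000005360 showed a change of leader on average, though not in every group. ENSRNOT00000065294 had a median share of 21.8% in the PFC (0% to 77.9%), 80.1% in the HIP (0% to 100%) and 68.1% in the STR (0% to 100%). ENSRNOT00000066250 mirrored it with medians of 77%, 15.9% and 25.8%. The former was 43.7 ± 6.58 points higher in the HIP than in the PFC (adjusted p = 8.5e-08, limma) and the latter 38.3 points lower in the STR than in the PFC (-38.3 ± 6.51, adjusted p = 4.18e-07). In HIP against PFC the former was higher by 39.2, 49.3, 53.3 and 32.8 points for F344_Sal, F344_Nic, HIV_Sal and HIV_Nic, and single groups were called for F344_Nic and HIV_Sal only (adjusted p of 0.132, 0.0172, 0.00856 and 0.158, limma). In STR against PFC the latter differed by -40.5, -59.4, -50.6 and -2.6 points in the same order. In HIV_Nic it led in both regions, at 56.2% in the PFC and 53.6% in the STR, against 41.3% and 40.5% for ENSRNOT00000065294, and the difference was not called in that group alone (adjusted p = 1, limma). Whether the groups differ in this was not tested. The sums were 14.7 ± 3.79, 13.2 ± 2.7 and 12.9 ± 3.65 FPKM (SD, n = 48). The 2 transcripts have close median lengths of 1199 and 1232 bases in the PFC.

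ENSRNOG00000005258 also varied by group. ENSRNOT00000056055 averaged 93.4%, 58.5% and 83.0% in PFC, HIP and STR, and its median was 100% in each. It was at 0% in 2 of 46 PFC libraries and 15 of 43 HIP libraries. The HIP lay 34.1 points below the PFC (-34.1 ± 7.19, adjusted p = 0.00023, limma), yet the difference was not called in F344_Nic alone (adjusted p = 0.933) or HIV_Sal alone (adjusted p = 0.877).

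The striatum stood apart in 3 further genes. In ENSRNOG00000008919 the share of ENSRNOT00000037199 was 100% in 43 of 46 STR libraries (lowest 0%). It had a median of 43.2% in the PFC and 48% in the HIP, with libraries at both 0% and 100%. The STR lay 51.0 ± 7.13 points above the PFC (adjusted p = 1.92e-09, limma) and 54.4 ± 6.83 above the HIP (adjusted p = 3.01e-11). The sum of the gene was 38.9, 21.5 and 134 FPKM in PFC, HIP and STR.

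In ENSRNOG00000017295 the sums were 89.5, 102 and 84.5 FPKM in PFC, HIP and STR. ENSRNOT00000023527 had a median share of 100% in the STR, 51.2% in the PFC and 24.2% in the HIP, and each region spanned 0% to 100%. The STR lay 42.3 ± 6.1 points above the PFC (adjusted p = 1.03e-08, limma) and 58.2 ± 6.1 above the HIP (adjusted p = 5.35e-14). ENSRNOT00000060680 was lower in the same contrasts (adjusted p = 1.92e-09 and 5.18e-15), with means of 39.5% and 52.3% in the PFC and HIP and 7.33% in the STR. Listed lengths varied little here, from 1745 to 1848 bases for ENSRNOT00000023527 in the STR.

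In ENSRNOG00000003241 the share of ENSRNOT00000004658 was higher in the STR while the gene sum was lower there. Its median share was 28.6% in the PFC (0% to 64.6%), 0% in the HIP (0% to 61.4%) and 52.4% in the STR (0% to 100%). The STR lay 38.5 ± 4.53 points above the PFC (adjusted p = 3.65e-10, limma) and 47.7 ± 4.53 above the HIP (adjusted p = 8.57e-15). The gene sum was 35.4 FPKM, 36.6 and 13.5 in PFC, HIP and STR. The FPKM of ENSRNOT00000004658 itself averaged 8.97, 5.17 and 6.91 in PFC, HIP and STR. ENSRNOT00000065955, which led in the PFC at 71.2%, took 35.9% of the smaller sum in the STR. Its share went with the listed length of its records. Among records over 100 bases longer than the shortest it averaged 72.7% in the PFC (n = 47) and 53.2% in the STR (n = 27), and among the 15 shorter STR records 4.73%. Among the longer records of ENSRNOT00000004658 the share averaged 24.6% in the PFC (n = 43) and 62.7% in the STR (n = 40). The part of record length in these differences was not tested.

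For ENSRNOT00000037199, ENSRNOT00000023527 and ENSRNOT00000004658, the difference of STR against PFC was positive in each of the 4 groups, but it was called in the nicotine groups alone and not in F344_Sal alone (adjusted p of 0.139, 0.23 and 0.127, limma) or HIV_Sal alone (0.0577, 0.327 and 0.412). Whether the groups differ was not tested.

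**Figure D5:**
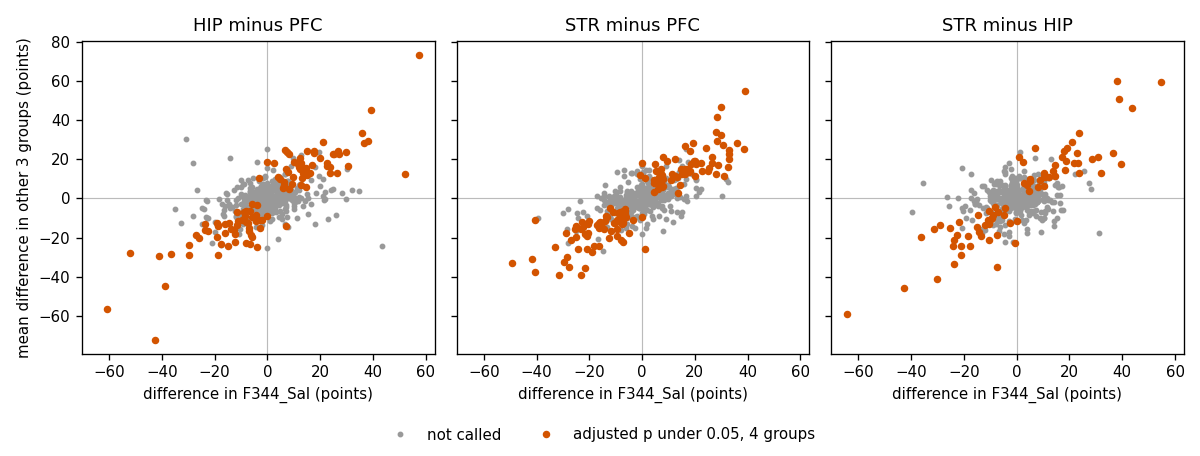
Difference of isoform share between regions in F344_Sal (x axis, percentage points) against the mean difference in the other 3 groups (y axis, percentage points), 1 point per member isoform and 1 panel per contrast, with called isoforms in orange. Called isoforms lie mostly in the quadrants of equal sign, as for ENSRNOT00000060325 in HIP against PFC at -60.8 and -56.5 points and ENSRNOT00000024493 at 57.2 and 73.3. The calls rest on the average of the groups on both axes, so equal sign is partly built in.

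Levels in the regions are given without a test. Among members with a tested sum, 74 lay past an adjusted p of 0.05 in HIP against PFC (37 higher, 37 lower), 98 in STR against PFC (49 and 49) and 91 in STR against HIP (42 and 49), beside 35.4%, 40.4% and 33.3% of all gene sums. Since the F344_Sal sums entered the choice of the genes, these counts are a description and nothing is read from them.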

How the data were processed

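RNA was sequenced from 144 samples of PFC, HIP and STR, 12 groups of 12. The authors made TruSeq libraries, read 50-base pairs on a HiSeq sequencer and aligned them with Bowtie (version 1.04 in the submitters' processing notes) and TopHat to rat genome build Rn4. Cufflinks then gave FPKM, and 6 tracking tables (strain by region) were deposited with the FPKM, its 95% interval, coverage and length of each transcript packed in 1 cell per library. Read counts were not given. All 144 sample columns were used and 0 were left unused.

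From the deposited FPKM of transcripts matching the annotation, each share of the gene sum was computed, leaving out a gene in a library where an isoform had no record. Shares were tested with limma 3.58.1 in R 4.3.3 on the arcsine square root, over isoforms of genes with at least 2 transcripts, a mean sum of at least 1 FPKM, a mean share of at least 1% and at least 6 values per group. Gene sums were tested as log2(FPKM + 0.1), which understates changes of low genes. P-values were adjusted by Benjamini-Hochberg over all features tested. The fit was checked on simulated shares with a normal spread. The 3 regions came from the same 48 brains, and the labels do not match libraries of 1 rat across regions, so the 144 libraries were treated as independent and region p-values do not account for shared animals. The contrast between strains among nicotine rats was added after the data were seen and run under 1 setting only. Methods of the study name a 2-way ANOVA of transcript levels, which has no share, so limma was used.

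Named genes are, for each region contrast, the 4 genes with the largest called difference, for each strain and nicotine contrast the 3 with the smallest adjusted p, called or not, and those with the highest sum or the smallest or largest SD. ENSRNOG00000004616 was also named for a transcript lower in HIV-1Tg, and some genes for a gene sum past the threshold. The isoforms printed with listed lengths were chosen after their values were seen. The members, lists and tests were chosen with earlier results of these data known. Alternatives were the transform, pseudocount, filters, normalization, outlier removal, weights, replicate block, single groups and leaving out each library.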

Additional observations from a re-analysis of the deposited data

Results flagged for a closer look

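The gene sum of ENSRNOG00000036814 in the PFC was picked out because the nicotine differences of the strains lay apart in limma's interaction term, by -0.76 ± 0.22 (SE) on the log2 scale. The term holds the F344_Sal sums by which the gene was chosen, so it is given as a description and not as a test. The sum ranged from 81.3 to 218.0 FPKM in F344_Sal (median 117.0), from 90.4 to 208.0 in F344_Nic (median 137.0), from 106.0 to 179.0 in HIV_Sal (median 140.0) and from 53.6 to 164.0 in HIV_Nic (median 103). The 4 groups overlapped. Transcripts that share a junction with the gene without matching the annotation held 17.7%, 5.83%, 5.73% and 21.1% of its FPKM in the same order of groups. Their part in the result was not tested. No isoform share of this gene was called in the interaction.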

How the results depend on the processing

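Of the counts of called member isoforms under each alternative, 260 stayed within 1.5 times the main count and 50 did not, and for gene sums 66 and 6. No difference or call of a named isoform or count changed sign, and the causes were not tested. The order of member and all isoforms in STR against HIP did turn round on log2 ratios (19.4% against 20.3% with a pseudocount of 0.1). A rule of 2 transcripts gave 678 genes and one of 20 FPKM gave 119, while the median F344 length gave 307 and at least 3 transcripts of fitting length 283. Removing values beyond 1.5 interquartile ranges, in the order saline strain, averaged strain, nicotine in F344, nicotine in HIV-1Tg and interaction, called 5, 19, 21, 35 and 12 member isoforms in the PFC (1.3%, 4.94%, 5.45%, 9.09% and 3.12%, against 0.461%, 3.13%, 4.09%, 6.05% and 2.21% of all isoforms), 21, 3, 16, 9 and 2 in the HIP (5.87%, 0.838%, 4.47%, 2.51% and 0.559%, against 4.25%, 1.67%, 3.77%, 1.7% and 1.03%) and 5, 13, 1, 17 and 4 in the STR (1.3%, 3.37%, 0.259%, 4.4% and 1.04%, against 1.58%, 2.84%, 0.673%, 3.66% and 0.468%). For HIP against PFC, STR against PFC and STR against HIP it called 203, 211 and 149 (46.8%, 48.6% and 34.3%, against 39.4%, 40.1% and 28.5% of all), and with at least 10 points 125, 145 and 95 (28.8%, 33.4% and 21.9%, against 25.2%, 26.3% and 18.2%). limma's diffSplice called 2, 6 and 2 for nicotine in F344, nicotine in HIV-1Tg and interaction in the PFC, 2 for nicotine in F344 in the HIP and 1 for the averaged strain contrast in the STR. A log2 ratio with a pseudocount of 1 called 1, 1 and 3 for the averaged strain contrast in PFC, HIP and STR (0.158%, 0.0194% and 0.0985% of all isoforms), 2 for nicotine in F344 in the HIP (0.0388%), 197 for STR against PFC (37.4%, against 31.8%) and 134 for STR against HIP (25.4%, against 26.8%). The PFC nicotine contrast in HIV-1Tg rats, 1 as reported, gave 0 with no transform, 0 with no filter on gene sums, 0 with its 24 libraries alone, 3 with sample weights (0.652% of all), 2 with a term for replicates 1 to 6 against 7 to 12 (0.534%), and 2 without HIV_Nic 10 and 11 (0.51%), the PFC libraries that stood apart. Nicotine in F344 in the HIP gave 1 with its 24 libraries alone.

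In F344_Sal, F344_Nic, HIV_Sal and HIV_Nic alone the HIP against PFC calls were 12, 32, 19 and 27 (2.28%, 6.07%, 3.61% and 5.12%, against 1.79%, 2.79%, 2.45% and 3.47% of all isoforms), STR against PFC 28, 62, 37 and 27 (5.31%, 11.8%, 7.02% and 5.12%, against 3.57%, 5.56%, 3.94% and 3.88%), and STR against HIP 19, 26, 21 and 23 (3.61%, 4.93%, 3.98% and 4.36%, against 2.65%, 2.43%, 2.13% and 2.67%). Without single libraries, PFC nicotine in HIV-1Tg ran from 0 to 4, with 4 without HIV_Nic 8 or 9 and 2 without F344_Nic 4, HIV_Nic 7, 10 or 12 or HIV_Sal 7. PFC nicotine in F344 ran from 0 to 1 (1 without F344_Sal 5), the PFC interaction from 0 to 1 (1 without F344_Nic 4 or HIV_Nic 9) and HIP nicotine in F344 from 0 to 1 (1 without F344_Nic 6). For member gene sums, a pseudocount of 0.01 gave 2 for PFC nicotine in F344 (5.27% of all gene sums) and 1 for STR saline strain (0.0778%). A pseudocount of 1 gave 2 for the PFC interaction (4.8%) and 1 for STR saline strain (0.0778%). Median scaling gave 2 for the PFC interaction (4.19%), and no filter gave 0 for HIP saline strain (0.0183%). These contrasts hold F344_Sal, so the counts are a description.

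With the replicate number as a block the PFC nicotine count in HIV-1Tg was 0 (0.277% of all isoforms). With libraries of the same group and number taken as 1 rat, the region counts were 109, 130 and 78, beside 110, 130 and 76 as reported. Across regions, same-numbered libraries of the same group did not deviate together. In each pair of regions 0 of 48 such pairs had a correlation over 0.1, so the main fit did not take the numbers to pair rats. Within each region 0 of 72 same-numbered pairs of other groups, which are different rats, had a correlation over 0.1.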
